A study of Mus musculus with 11 samples.

Results

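Genes of the transforming growth factor β (TGFβ) pathway were followed in EpCAM+ cells that had been sorted, as CD11b-low cells, from cultures of mouse bone marrow monocytes. The members were 10 genes picked by symbol from the 21860 genes measured, and all 10 passed the filter on low values. They were the ligand Tgfb1, the receptors Tgfbr1 and Tgfbr2, the signal carrier Smad3, its inhibitors Smad7, Skil and Tgif1, and the targets Tgfbi, Id1 and Id3. Bulk RNA sequencing had been done on 11 samples after 6 days of culture. The growth factor GM-CSF (20 ng/ml) was in every culture. TGFβ (5 ng/ml) together with IL-34 (8 µg/ml) was in 10 of them, and the groups are named here by what was added. There were 2 samples each of TGFβ/IL-34 and of TGFβ/IL-34/FICZ. The groups TGFβ/IL-34/Jag1 as well as TGFβ/IL-34/Jag1/FICZ had 3 samples each. A single sample, called Jag1 only, had GM-CSF with Jag1 but neither TGFβ nor IL-34. Jag1 is a Notch ligand, carried here by OP9 cells, a mouse stromal line. The labels name OP9 for every sample, while the names of the libraries separate those with Jag1 from those without, so it is not clear whether cultures without Jag1 held OP9 cells, and Jag1 cannot be told apart from the stroma that carried it. FICZ activates the aryl hydrocarbon receptor (Ahr) according to the study, whereas the deposited design text calls it an antagonist. Its dose was not given in the sources used here. The donors were C57BL/6 mice of either sex, of an age not given in the sources used here, and nothing states that replicates came from separate animals, so the p-values measure the spread between these samples, which may be technical.

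TGFβ is secreted in a latent form and must be released before it can bind TGFBR2, which then recruits and phosphorylates TGFBR1. The active receptor phosphorylates SMAD2 and SMAD3, which enter the nucleus with SMAD4 and change transcription. SMAD7, SKIL and TGIF1 damp the signal, and the genes of SMAD7 and SKIL are themselves switched on by it. ID1 and ID3 block the DNA binding of E proteins and respond to TGFβ and to bone morphogenetic proteins (BMPs). TGFβ1 is needed for Langerhans cells to develop and to stay in the epidermis.

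Values are counts that the authors had normalized for library size and transcript length. Totals ran from 21.31 to 27.85 M per sample, from an estimated 20.56 to 24.19 M reads. The pair of TGFβ/IL-34/FICZ samples lay far apart, with 34.8% of the 13095 tested genes at least 2-fold different between them against 7.17% to 22.0% as the largest gap within the other groups. Of the members, 5 were 2-fold apart in that pair. Epcam was read at 3952 to 14377 in the 10 samples with TGFβ and IL-34 and at 657 in Jag1 only. The summed level of 5 Langerhans cell markers (Epcam, Cd207, Cldn1, Mfge8 and Cdh1) was 149426 and 150467 in TGFβ/IL-34, 73036 and 88395 in TGFβ/IL-34/FICZ, 302563 to 310960 in TGFβ/IL-34/Jag1, 53990 to 116320 in TGFβ/IL-34/Jag1/FICZ and 19981 in Jag1 only. Mfge8 made up most of this sum in every sample. Epcam did not follow the sum everywhere. It was read at 5050 and 4706 in TGFβ/IL-34, 5943 and 3952 in TGFβ/IL-34/FICZ and 6086 to 9133 in TGFβ/IL-34/Jag1/FICZ. Cd207 and Cldn1 were lower in each group with FICZ than in its counterpart without it. Cdh1 overlapped between the Jag1 groups with and without FICZ. The summed level of 7 myeloid markers ran from 31273 to 75912 over all 11 samples, and no myeloid marker was at 0.

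Per kilobase of the canonical transcript, the mean level in TGFβ/IL-34 fell in the order Tgfb1 (5379 normalized counts per kilobase), Tgfbr1 (1112), Skil (878), Id3 (854), Tgif1 (785), Id1 (444), Tgfbi (348), Smad7 (229), Tgfbr2 (228) and Smad3 (1.35). Among neighbours in that order, the samples overlapped between Skil and Id3, Id3 and Tgif1, Id1 and Tgfbi, Tgfbi and Smad7, and Smad7 and Tgfbr2. The ligand was thus the most abundant transcript of the 10 per length and Smad3 was close to the detection limit, where a value rests on a few reads.

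**Figure D1:**
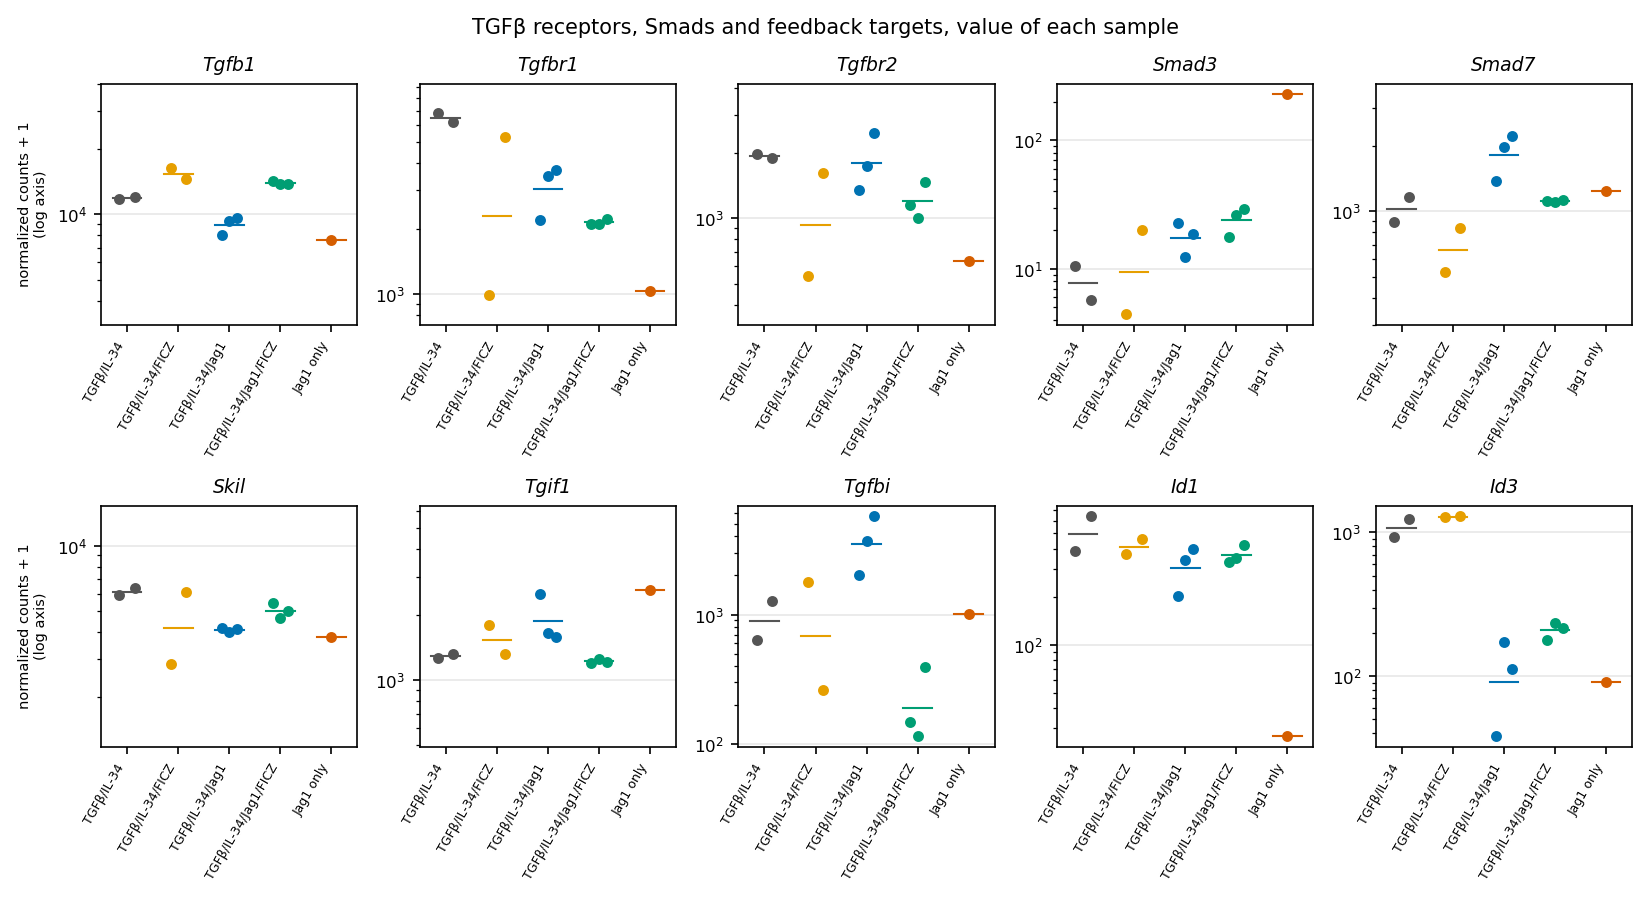
Normalized counts plus 1 (log axis) of each member in each sample, by culture group, with the mean of the log values as a bar. Id3 lies at 934 to 1290 in the 4 samples without Jag1 and at 37.3 to 232 in the 7 with it, Tgfbi splits the Jag1 samples with and without FICZ, and Smad3 and Id1 of the Jag1 only sample lie far from the other 10.

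Id3 was the member that passed in all 3 comparisons of cultures with and without Jag1, and it fell in each. Id3 was read at 934 and 1248 in TGFβ/IL-34, at 1273 and 1290 in TGFβ/IL-34/FICZ, at 37.3, 171 and 111 in TGFβ/IL-34/Jag1, at 178, 232 and 214 in TGFβ/IL-34/Jag1/FICZ and at 90.1 in Jag1 only. All 7 samples with Jag1 lay below all 4 without it. The mean of TGFβ/IL-34 was 1091 ± 222 (SD, n = 2). That of TGFβ/IL-34/Jag1 was 106 ± 66.8 (SD, n = 3), 10.3-fold lower. On the log2(value + 1) scale, which all fold changes below use, Id3 fell by 3.58 with Jag1 (95% interval −4.70 to −2.46, limma, adjusted p = 0.00256), and it passed under every alternative, with adjusted p from 0.00011 to 0.0470.

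Where FICZ was present Id3 also fell with Jag1, with a log2 fold change of −2.62 (standard error 0.50, limma, adjusted p = 0.0298). With Jag1 and FICZ together it fell by 2.38 against neither (95% interval −3.50 to −1.26, limma, adjusted p = 0.0283). The groups did not overlap in either comparison. Both calls were at the edge of the threshold: the first was lost without TGFβ/IL-34/FICZ replicate 1 and without any of the 3 TGFβ/IL-34/Jag1/FICZ samples (limma, adjusted p = 0.0981 to 0.11), and the second without any of its 5 samples (limma, adjusted p = 0.0736 to 0.222). With all samples kept, the first call was lost with array weights (limma, adjusted p = 0.689). It was also lost with no filter and with only the groups compared (limma, adjusted p = 0.0689 and 0.0565). The second was lost with no filter (limma, adjusted p = 0.0595). These comparisons share samples and are not independent of each other. Between the Jag1 samples, Id3 was 1.96-fold higher with FICZ and the groups did not overlap, but the log2 fold change of 1.20 did not pass (95% interval 0.20 to 2.21, limma, adjusted p = 0.0969). The effect of Jag1 on Id3 did not pass as different with and without FICZ (difference 0.96, 95% interval −0.62 to 2.54, limma, adjusted p = 0.44).

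Stromal transcripts were higher in the same samples in which Id3 was low. The collagen genes Col1a1 and Col1a2 were read at 0 to 3.84 without Jag1, at 69.1 to 1345 in the 6 samples with TGFβ, IL-34 and Jag1, and at 37.4 and 52.9 in Jag1 only. A list of 15 stromal genes summed to 842 to 12237 without Jag1 and to 693 to 17200 with it. Thy1 made up most of the sum in every sample outside TGFβ/IL-34/Jag1. Without Thy1, which was left out after its values had been seen, the other 14 summed to 52.1 to 129 without Jag1 and to 465 to 5012 with it. Dcn and Lum of this list were at 0 in all 11 samples. The part of stromal RNA in the change of Id3 was not tested, and in bulk samples fewer cells of a type cannot be told apart from less RNA per cell.

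Id1, a close relative of Id3, did not follow it in the cultures with TGFβ and IL-34. Id1 was read at 387 and 638 in TGFβ/IL-34, at 368 and 462 in TGFβ/IL-34/FICZ, at 201, 337 and 399 in TGFβ/IL-34/Jag1 and at 332, 347 and 424 in TGFβ/IL-34/Jag1/FICZ. The groups with and without Jag1 overlapped. With Jag1 the log2 fold change was −0.72 (95% interval −1.46 to 0.01, limma, adjusted p = 0.275), and none of the 5 comparisons between groups passed for Id1.

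Tgfbi, which encodes a secreted matrix protein named for its induction by TGFβ, fell most with FICZ in the presence of Jag1. Tgfbi was read at 2021, 3697 and 5688 in TGFβ/IL-34/Jag1 and at 148, 115 and 394 in TGFβ/IL-34/Jag1/FICZ. The lowest sample without FICZ was above the highest with it, and the means were 3802 ± 1835 (SD, n = 3) and 219 ± 152 (SD, n = 3), 17.4-fold apart. The log2 fold change was −4.20 (95% interval −5.76 to −2.65, limma, adjusted p = 0.00232), it passed under all alternatives, and it ran from −4.99 to −3.76 within the 3 pairs of samples that share an experiment code.

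Without Jag1 the FICZ samples of Tgfbi did not hold together. Tgfbi was read at 631 and 1276 in TGFβ/IL-34, at 1768 and 261 in TGFβ/IL-34/FICZ and at 1010 in Jag1 only, so the FICZ samples lay on both sides of the untreated pair. The mean of TGFβ/IL-34/Jag1 was 3.99-fold that of TGFβ/IL-34 and the groups did not overlap, but the log2 fold change of 1.96 did not pass (95% interval 0.22 to 3.70, limma, adjusted p = 0.198). The difference between the FICZ effects with and without Jag1 was −3.80 for Tgfbi and did not pass either (95% interval −6.26 to −1.34, limma, adjusted p = 0.133).

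**Figure D2:**
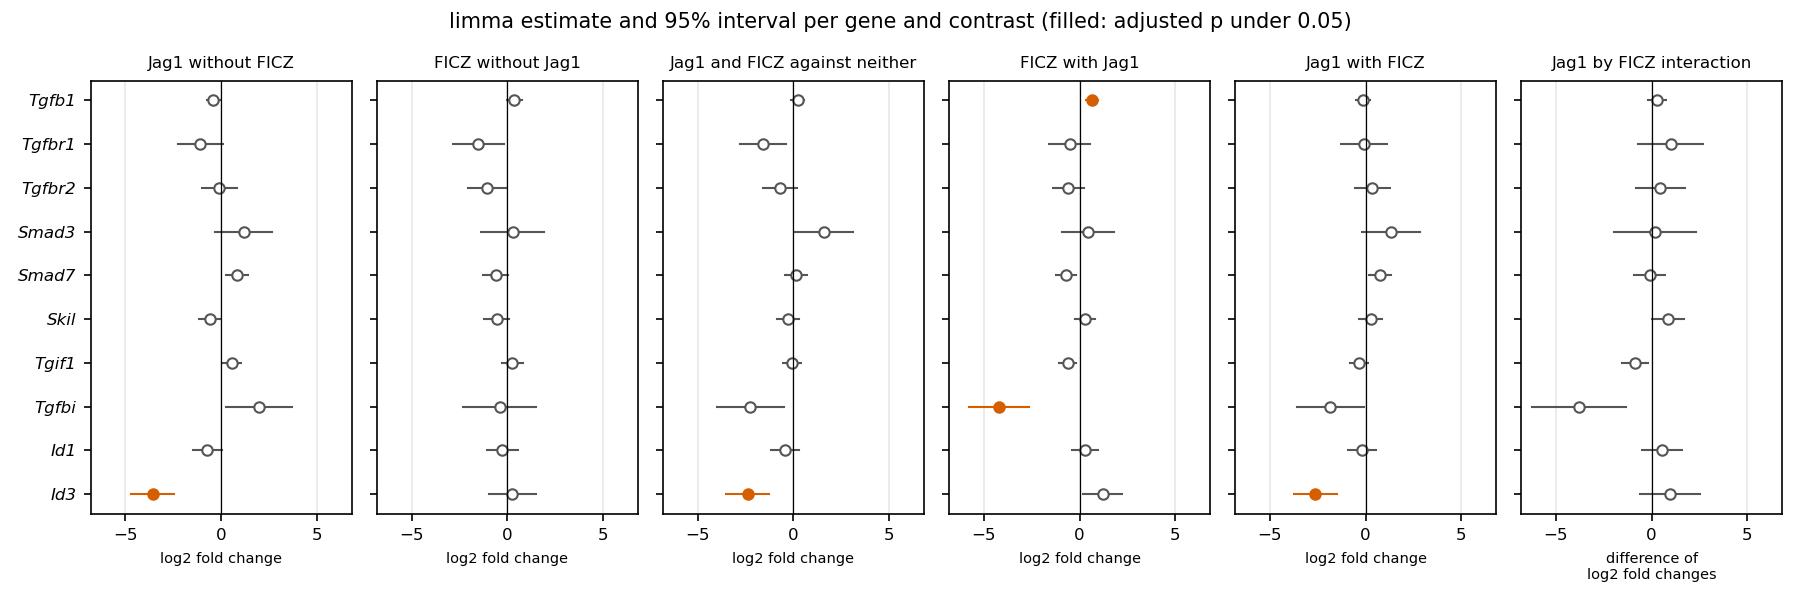
Log2 fold change of each member (x axis, rows are genes) with its 95% interval in 6 contrasts from limma, filled and orange where the adjusted p is under 0.05. Id3 is the filled point in the 3 contrasts that add Jag1 to cultures, at −3.58, −2.38 and −2.62, and Tgfb1 and Tgfbi are filled for FICZ with Jag1, at 0.64 and −4.20.

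Tgfb1, the ligand itself, rose with FICZ in the presence of Jag1. Tgfb1 was read at 7998, 9328 and 9623 in TGFβ/IL-34/Jag1 and at 14288, 13716 and 13849 in TGFβ/IL-34/Jag1/FICZ. The groups did not overlap and their means were 1.55-fold apart. The log2 fold change was 0.64 (95% interval 0.33 to 0.95, limma, adjusted p = 0.00972), which was lost without TGFβ/IL-34/Jag1/FICZ replicate 1 (limma, adjusted p = 0.0516). In the other groups Tgfb1 stood at 11799 and 12029 in TGFβ/IL-34, at 16246 and 14523 in TGFβ/IL-34/FICZ and at 7611 in Jag1 only. Both FICZ groups thus lay above their counterparts without FICZ, but without Jag1 the log2 fold change of Tgfb1 was 0.37 and did not pass (95% interval −0.01 to 0.74, limma, adjusted p = 0.285). Jag1 without FICZ gave −0.41 (95% interval −0.76 to −0.07, limma, adjusted p = 0.17).

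The type I receptor Tgfbr1 was highest in TGFβ/IL-34, where it was read at 6809 and 6186. It stood at 986 and 5278 in TGFβ/IL-34/FICZ, at 2180, 3483 and 3718 in TGFβ/IL-34/Jag1, at 2097, 2111 and 2205 in TGFβ/IL-34/Jag1/FICZ and at 1036 in Jag1 only. Every other sample lay below both TGFβ/IL-34 samples, yet no comparison passed for Tgfbr1. The log2 fold change was −1.09 with Jag1 (95% interval −2.28 to 0.10, limma, adjusted p = 0.319), −1.51 with FICZ (95% interval −2.81 to −0.20, limma, adjusted p = 0.285) and −1.60 with both (95% interval −2.79 to −0.41, limma, adjusted p = 0.135), all against the same pair of samples. The comparisons with Jag1 and with both passed for Tgfbr1 with array weights (limma, adjusted p = 0.00459 and 7.34e-05) and when only the groups compared were fitted (limma, adjusted p = 0.046 and 0.000621).

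The type II receptor Tgfbr2 was read at 1970 and 1899 in TGFβ/IL-34, at 542 and 1611 in TGFβ/IL-34/FICZ, at 1344, 1740 and 2481 in TGFβ/IL-34/Jag1, at 1150, 1004 and 1474 in TGFβ/IL-34/Jag1/FICZ and at 636 in Jag1 only. With Jag1 its samples lay on both sides of the TGFβ/IL-34 pair (log2 fold change −0.11, 95% interval −1.01 to 0.80, limma, adjusted p = 0.939). FICZ replicate 1 was low in both receptors, 5.35-fold below replicate 2 in Tgfbr1 and 2.97-fold below it in Tgfbr2. That sample decided the FICZ comparison without Jag1: with it as the only FICZ sample, 5 members passed, against 43.7% of all genes, among them Tgfbr1 at −2.72 and Tgfbr2 at −1.83 (limma, adjusted p = 0.000145 and 0.00216), and with replicate 2 as the only one, none did.

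Smad3 carries the receptor signal together with SMAD2 and was near the floor in all cultures with TGFβ and IL-34. Smad3 was read at 9.59 and 4.74 in TGFβ/IL-34, at 3.45 and 18.9 in TGFβ/IL-34/FICZ, at 21.6, 11.4 and 17.6 in TGFβ/IL-34/Jag1 and at 16.7, 25.0 and 28.2 in TGFβ/IL-34/Jag1/FICZ. All 6 samples with Jag1 lay above TGFβ/IL-34, at a depth where 1 read is worth 0.897 to 1.151. No comparison passed, and the largest log2 fold change was 1.61 for Jag1 and FICZ against neither (95% interval 0.11 to 3.11, limma, adjusted p = 0.242).

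Smad7, an inhibitory Smad that the pathway switches on against itself, was higher in every sample of TGFβ/IL-34/Jag1 than in any other sample, but passed in no comparison of the fit over all samples without blocks or weights. Smad7 was read at 890 and 1168 in TGFβ/IL-34, at 524 and 841 in TGFβ/IL-34/FICZ, at 1372, 1977 and 2213 in TGFβ/IL-34/Jag1, at 1109, 1104 and 1123 in TGFβ/IL-34/Jag1/FICZ and at 1234 in Jag1 only. The 3 samples with Jag1 and without FICZ did not overlap with those of the same cultures with FICZ or without Jag1. The log2 fold change was 0.83 for Jag1 (95% interval 0.26 to 1.41, limma, adjusted p = 0.0923) and −0.71 for FICZ with Jag1 (95% interval −1.22 to −0.20, limma, adjusted p = 0.0603). With the replicate number as a block, which pairs the samples of these last 2 groups, the difference of Smad7 with FICZ passed (limma, adjusted p = 0.032). It also passed with array weights, with only the groups compared, with the code of the description or of the file as a block, and without TGFβ/IL-34/Jag1 replicate 1 (limma, adjusted p = 0.00364 to 0.0358). Smad7 for Jag1 without FICZ passed with array weights and with the description's code as a block (limma, adjusted p = 0.00309 and 0.0412).

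Tgif1 and Skil encode corepressors that bind Smads in the nucleus. Tgif1 was read at 2487, 1656 and 1583 in TGFβ/IL-34/Jag1 and at 1203, 1246 and 1205 in TGFβ/IL-34/Jag1/FICZ, with no overlap (log2 fold change −0.62, 95% interval −1.05 to −0.18, limma, adjusted p = 0.0543). This call depended on the setting, since Tgif1 passed with the description's experiment code as a block (limma, adjusted p = 0.0395), with the flow cell as a block (0.0499), with only the groups compared (0.0332) and with array weights (0.00765). Tgif1 stood at 1260 and 1314 in TGFβ/IL-34, at 1789 and 1322 in TGFβ/IL-34/FICZ and at 2606, its highest value, in Jag1 only. Skil was read at 5900 and 6372 in TGFβ/IL-34, at 2832 and 6100.5 in TGFβ/IL-34/FICZ, at 4181, 3984 and 4123 in TGFβ/IL-34/Jag1, at 5425, 4642 and 4974 in TGFβ/IL-34/Jag1/FICZ and at 3795 in Jag1 only. The 3 Skil values with Jag1 lay below the TGFβ/IL-34 pair and below the 3 with Jag1 and FICZ, but no comparison passed (Jag1 without FICZ −0.58, 95% interval −1.17 to 0.01, limma, adjusted p = 0.269). For Jag1 without FICZ, Skil passed with array weights and with only the groups compared (limma, adjusted p = 0.0047 and 0.0221).

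The counts of members are given beside the share of all 13095 genes tested. With Jag1 without FICZ, 1 of 10 members passed (Id3) against 6.6% of all genes, and 8 of 10 did not overlap between the groups against 46.6%. With FICZ without Jag1, 0 of 10 passed in limma against 0.0229% (2 at an unadjusted p under 0.05, Tgfbr1 and Tgfbr2, against 17.4% of all genes), and 6 did not overlap against 45.7%. With both against neither, 1 passed against 4.48% and 8 did not overlap against 54.2%. For FICZ with Jag1, 2 passed against 17.7% and 6 did not overlap against 45.1%. For Jag1 with FICZ, 1 passed against 2.02% and 4 did not overlap against 35.8%. No member passed the test of the Jag1 by FICZ interaction, against 1.39% of genes, and 3 had an unadjusted p under 0.05 in limma (Tgfbi, Tgif1 and Skil) against 18.8% of all genes. The median log2 fold change of the 10 members was −0.26 for Jag1 without FICZ, −0.33 for FICZ without Jag1, −0.37 for both against neither, −0.11 for FICZ with Jag1 and −0.12 for Jag1 with FICZ. The medians of all genes in these contrasts ran from −0.020 to 0.047. In the interaction the median was 0.37 for the members and 0.067 for all genes.

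Promoter sequences are shown for the 4 members with the widest range over the samples, namely Smad3, Tgfbi, Id3 and Id1. Each run is the stretch of up to 250 bases before the start of the canonical transcript in GRCm39, read 5′ to 3′ on the gene's strand, and ends before any exon of the gene. They are chr9:63665477-63665726 (minus strand) for Smad3, chr13:56757118-56757335 (plus) for Tgfbi, chr4:135870558-135870807 (plus) for Id3 and chr2:152577915-152578164 (plus) for Id1. The capitals mark CAGAC or its reverse complement GTCTG, which hold the short core that Smads bind.
Smad3: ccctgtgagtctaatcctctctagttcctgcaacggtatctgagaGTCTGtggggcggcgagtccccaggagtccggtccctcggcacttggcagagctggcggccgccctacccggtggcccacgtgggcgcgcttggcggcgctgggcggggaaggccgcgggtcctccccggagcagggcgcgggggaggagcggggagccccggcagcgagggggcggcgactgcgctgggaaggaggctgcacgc
Tgfbi: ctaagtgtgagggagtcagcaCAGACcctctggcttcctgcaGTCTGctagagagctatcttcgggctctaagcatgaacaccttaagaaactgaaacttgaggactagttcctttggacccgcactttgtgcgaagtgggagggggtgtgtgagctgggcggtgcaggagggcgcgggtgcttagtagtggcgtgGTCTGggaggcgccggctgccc
Id3: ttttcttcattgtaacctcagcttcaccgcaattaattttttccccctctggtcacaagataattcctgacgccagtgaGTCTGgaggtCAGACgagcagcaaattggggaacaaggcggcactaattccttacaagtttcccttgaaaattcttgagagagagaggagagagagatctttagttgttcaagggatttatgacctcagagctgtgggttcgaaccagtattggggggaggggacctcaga
Id1: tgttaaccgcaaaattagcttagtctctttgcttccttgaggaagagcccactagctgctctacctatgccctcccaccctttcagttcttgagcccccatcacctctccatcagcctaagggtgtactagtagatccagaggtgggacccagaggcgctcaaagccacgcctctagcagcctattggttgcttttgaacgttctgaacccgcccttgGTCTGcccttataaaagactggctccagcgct
Over the full 250 bases, the motif was present on either strand in 7 of the 10 members, and in 41.4% of 21478 promoters. Tgfbi held 3 matches, Id3, Skil and Tgfbr2 held 2 each, and Smad3, Id1 and Tgfbr1 held 1 each. The Ahr core GCGTG (reverse complement CACGC) was present in 6 of 10 members and in 31.3% of promoters. TGGGAA, a core of the Notch effector RBPJ (reverse complement TTCCCA), was present in 1 member, Smad3, and in 22.8% of promoters. None of the 3 motifs contains another, and a match is a description of the letters, not a bound site.

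The genes lie, in GRCm39, at chr7:25386390-25404506 (Tgfb1), chr4:47353134-47414931 (Tgfbr1), chr9:115913361-116004800 (Tgfbr2), chr9:63554049-63665476 (Smad3), chr3:31148816-31176740 (Skil), chr17:71151192-71160541 (Tgif1), chr13:56757336-56787375 (Tgfbi), chr2:152566218-152579544 (Id1) and chr4:135870808-135873066 (Id3), all protein coding, and the position of Smad7 is not reported here. In the GENCODE annotation an antisense noncoding transcript shares exon bases with Tgfbr1 (61 bases), Tgfbr2 (443), Tgif1 (851), Id1 (243) and Id3 (212). Whether the quantification used strand is not given in the sources used here, so reads of these genes and of their antisense partners may not be separated.

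The sample with Jag1 but without TGFβ and IL-34 asks what the added cytokines did, though it is a single sample, the effects of TGFβ and of IL-34 cannot be told apart, and its values are given without a test because it has no replicate. It was set beside TGFβ/IL-34/Jag1, and a gene counted as different where it lay outside the range of those 3 samples and at least 2-fold from the mean of their log values. By this measure 5 of 10 members differed, against 28.4% of all genes tested. Outside the range of all 10 samples with TGFβ and IL-34 lay 4 members (Smad3, Tgif1, Id1 and Tgfb1), against 38.2% of genes.

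Smad3 was 226 in Jag1 only, 13.4-fold the mean of 16.9 ± 5.13 (SD, n = 3) in TGFβ/IL-34/Jag1, and its distance above the highest of the other 10 samples was 2.96 on the log2 scale. Id1 was the reverse. It was read at 25.7 in Jag1 only against 201 to 638 in the other 10 samples, and TGFβ/IL-34/Jag1, with 313 ± 102 (SD, n = 3), was 12.2-fold higher. Its distance below the lowest of the others was 2.92. Of the 13095 genes, 21 (0.16%) lay at least as far above all others as Smad3, and 21 (0.16%) at least as far below all others as Id1. Id3 did not share this: at 90.1 it lay inside the 37.3 to 171 of TGFβ/IL-34/Jag1.

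**Figure D3:**
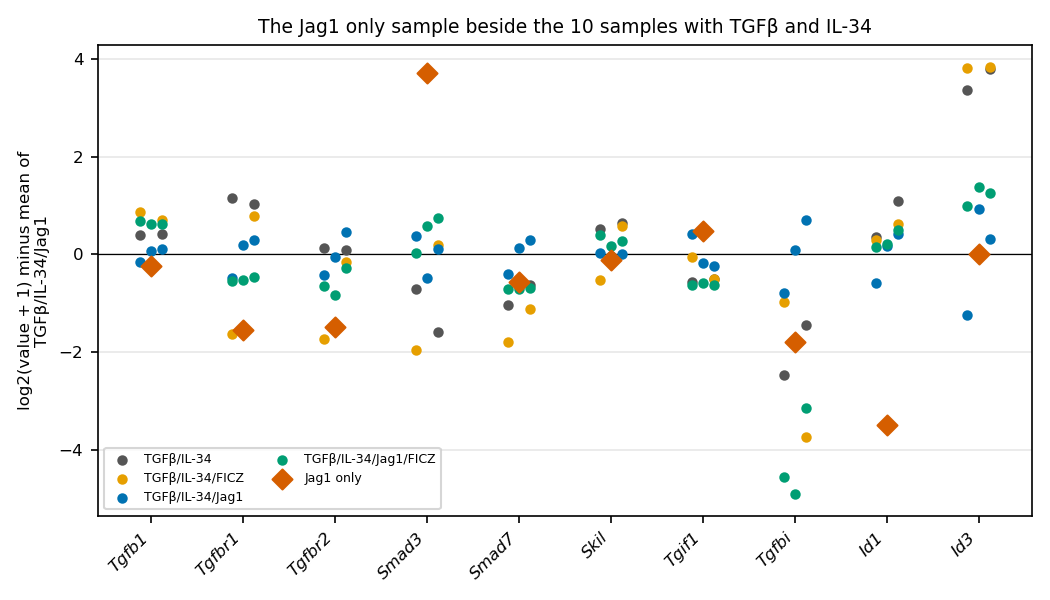
For each member (x axis), log2(value + 1) of every sample minus the mean of the 3 TGFβ/IL-34/Jag1 samples, with the Jag1 only sample as a large diamond. Smad3 lies 3.71 above that mean and Id1 3.50 below it, both beyond all other samples, while Id3 and Skil lie near 0.

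The other 3 members that differed were lower in Jag1 only. Tgfbr1 was 3.02-fold higher in TGFβ/IL-34/Jag1 (3127 ± 828, SD, n = 3) than in Jag1 only (1036), Tgfbr2 was 2.92-fold higher (1855 ± 577 against 636), and Tgfbi 3.76-fold higher (3802 ± 1835 against 1010). Tgfbr1 and Tgfbr2 of TGFβ/IL-34/FICZ replicate 1, at 986 and 542, were lower still. The distances were smaller against TGFβ/IL-34/Jag1 replicate 1, which shares the experiment code of Jag1 only: 1.07 for Tgfbr1, 1.08 for Tgfbr2 and 1.00 for Tgfbi on the log2 scale, beside 2.92 for Id1 and −3.33 for Smad3. The feedback genes Smad7 and Skil, at 1234 and 3795, were 0.56 and 0.11 lower than the mean of TGFβ/IL-34/Jag1.

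Marker levels set the Jag1 only sample apart as well. Its summed Langerhans cell markers (19981) lay below every other sample. The myeloid markers were mixed. Csf1r, a myeloid growth factor receptor, was 2001 against 3901 to 31394 in the others, and Spi1 was 4412 against 5544 to 10510. Ptprc went the other way, at 7315 against 3297 to 6334. Itgam, Lyz2, Fcer1g and Tyrobp lay within the range of the others. Its stromal sum without Thy1 (702) and its myeloid sum (34842) lay within the range of the other Jag1 samples. Its 8 mast cell and basophil genes summed to 6461 against 1781 to 2938 in TGFβ/IL-34/Jag1, and its 9 granulocyte genes to 685 against 232 to 351. Lyz2, a lysozyme gene of myeloid cells, was 7564 against 327 to 930, while the samples without Jag1 had 4315 to 8381. The part of cell makeup in the values of Smad3 and Id1 was not tested.

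Of 78 further genes of the pathway, 67 passed the filter on low values. More of the 67 passed the tests for FICZ with Jag1 than for any other contrast, and so did more of all genes (17.7%). With Jag1 without FICZ 6 of 67 passed, 3 higher and 3 lower, with a median log2 fold change of 0.084 over the 67, beside the 6.6% and −0.0041 of all genes. Lrrc32, whose product GARP holds latent TGFβ at the cell surface, was read at 73.3 and 63.0 in TGFβ/IL-34 and at 983, 686 and 696 with Jag1 (log2 fold change 3.50, 95% interval 2.73 to 4.26, limma, adjusted p = 0.00038). Snai1 and Runx3, a transcription factor of Langerhans cells, rose by 2.90 and 0.96 (limma, adjusted p = 0.0185 and 0.0141), and both calls were lost without either TGFβ/IL-34 sample (limma, adjusted p = 0.126 and 0.154 for Snai1, 0.123 and 0.152 for Runx3), that of Snai1 also without TGFβ/IL-34/Jag1 replicate 1 (0.0648). Smad6, the inhibitory Smad of BMP signals, was read at 454 and 470 without and at 121, 125 and 144 with Jag1 (log2 fold change −1.83, limma, adjusted p = 0.00321), and was lost without TGFβ/IL-34 replicate 2 (limma, adjusted p = 0.0568). The coreceptor Eng fell by 1.29 (limma, adjusted p = 0.0117) and was lost without TGFβ/IL-34 replicate 1 or 2 (limma, adjusted p = 0.143 and 0.064). The activin subunit gene Inhba fell by 1.99 (limma, adjusted p = 0.0373) and passed in only 6 of 15 alternatives, being lost without TGFβ/IL-34 replicate 2 and without any of the 3 TGFβ/IL-34/Jag1 samples (limma, adjusted p = 0.0675 to 0.413).

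For FICZ with Jag1, 15 of 67 passed, 9 higher and 6 lower, against 17.7% of all genes and with a median of 0.0067, with genes for release of latent TGFβ on both sides. Thbs1, whose product activates latent TGFβ, was read at 2022, 3070 and 1755 in TGFβ/IL-34/Jag1 and at 30121, 21488 and 21480 with FICZ (log2 fold change 3.44, 95% interval 2.83 to 4.04, limma, adjusted p = 4e-05). Lrrc32 fell to 109, 80.1 and 167, a log2 fold change of −2.76 (95% interval −3.45 to −2.08, limma, adjusted p = 0.000257). Fn1 (fibronectin) and Cdkn2b, a cell cycle inhibitor gene induced by TGFβ, rose by 2.43 and 2.25 (limma, adjusted p = 0.000751 and 0.00243), and Dab2, an adaptor of the receptors, and Sdcbp fell by 2.13 and 1.01 (limma, adjusted p = 0.000548 and 0.00708). These 6 passed under all alternatives. Klf10, an early response gene, and Axl, a receptor tyrosine kinase induced by TGFβ in Langerhans cells, fell by 1.52 and 1.39 (limma, adjusted p = 0.0109 and 0.0121). Klf10 was lost without TGFβ/IL-34/Jag1/FICZ replicate 2 (limma, adjusted p = 0.0511) and Axl without that sample or TGFβ/IL-34/Jag1 replicate 3 (0.0617 and 0.0527). The coreceptor Tgfbr3 rose by 2.51 from a low level (limma, adjusted p = 0.0222), which was lost without TGFβ/IL-34/Jag1 replicate 2 or 3 or any TGFβ/IL-34/Jag1/FICZ sample (limma, adjusted p = 0.0559 to 0.0817).

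Markers of other blood lineages were higher in the samples in which Tgfbi fell. A sum of 9 granulocyte genes was 232 to 351 in TGFβ/IL-34/Jag1 and 8064 to 12470 in TGFβ/IL-34/Jag1/FICZ, against 366 and 1358 in TGFβ/IL-34 and 3008 and 4636 in TGFβ/IL-34/FICZ. Ly6g of this list was at 0 in 10 of the 11 samples. A sum of 8 mast cell and basophil genes was 1781 to 2938 in TGFβ/IL-34/Jag1 and 9384 to 12772 in TGFβ/IL-34/Jag1/FICZ. This sum was 6158 and 6532 in TGFβ/IL-34 and 8564 and 12727 in TGFβ/IL-34/FICZ, where Tgfbi did not hold together. Fcer1a of this list was at 0 in all 11. The summed Langerhans cell markers were lower with FICZ in the same groups, as given above. The part of cell makeup in the changes of Tgfbi, Tgfb1 and the other pathway genes was not tested.

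With FICZ without Jag1 none of the 67 passed in limma, and 12 had an unadjusted p under 0.05 (17.4% of all genes). With Jag1 and FICZ against neither 10 passed, 4 higher and 6 lower (4.48% of all genes), and with Jag1 where FICZ was present 6 passed, 4 higher and 2 lower (2.02% of all genes). Thbs1 rose in both, by 3.31 against neither and by 2.01 where FICZ was present (limma, adjusted p = 0.00108 and 0.0129). The first passed under every alternative. The second was lost without TGFβ/IL-34/Jag1/FICZ replicate 1 (limma, adjusted p = 0.0532). It was also lost with array weights and with only the groups compared (limma, adjusted p = 0.689 and 0.0826). In these settings no gene at all passed for Jag1 where FICZ was present. Ccn2, a matrix gene abundant in stromal cells, was listed at 0 in the 4 samples without Jag1 and in Jag1 only, and at 8.36, 46.9 and 100 in TGFβ/IL-34/Jag1/FICZ, in the order of the Col1a1 values of those samples (222, 625 and 1345). Axl, at 22691 and 20413 in TGFβ/IL-34 and 4000, 2724 and 4309 with both, fell by 2.58 (limma, adjusted p = 0.00477), which was lost without TGFβ/IL-34 replicate 1 (0.0795).

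The remaining calls of these contrasts were weak. Against neither, Ltbp3 (a latent TGFβ binding protein) fell from 1174 and 1077 to 384, 379 and 433, Dab2, Eng and Pmepa1 (a feedback inhibitor) had log2 fold changes of −1.43, −1.02 and −0.86, and Fn1 and Nrros (which holds latent TGFβ on myeloid cells) rose by 1.51 and 0.76 (limma, adjusted p = 0.0124 to 0.047). Each of these 6 was lost without either TGFβ/IL-34 sample (limma, adjusted p = 0.0921 to 0.397), and Ccn2 (limma, adjusted p = 0.0272) likewise (0.165 and 0.2). All 7 were also lost without TGFβ/IL-34/Jag1/FICZ replicate 2 and without replicate 1 or 3 or both (limma, adjusted p = 0.0577 to 0.167). Where FICZ was present, Jag1 raised Lrrc32 and Runx3 by 1.59 and 0.89 and Smad6 and Ltbp3 had log2 fold changes of −1.54 and −1.41 (limma, adjusted p = 0.0228 to 0.0477), each lost without TGFβ/IL-34/FICZ replicate 1 (limma, adjusted p = 0.0519 to 0.137), as was Ccn2 (0.0427, and 0.121 without it). These 5 were also lost without TGFβ/IL-34/Jag1/FICZ replicate 2 and without replicate 1 or 3 or both (limma, adjusted p = 0.0723 to 0.165). All 5 were lost as well with array weights (limma, adjusted p = 0.668 to 0.726) and with only the groups compared (0.153 to 0.246).

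In the sample without TGFβ and IL-34, 26 of the 67 differed from TGFβ/IL-34/Jag1 by the same measure as the members, against 28.4% of all genes. Several ligand genes were higher there: Inhba was 1086 against 30.5 to 44.2, and Tgfb2 183 against 16.3 to 19.5. Thbs1 was 41889 against 1755 to 3070 and Cdkn2b 615 against 18.2 to 44.8. Known TGFβ targets of Langerhans cells were lower: Itgae, the integrin that binds E-cadherin, was 276 against 2693 to 8812, and Axl 746 against 7086 to 11294. Smad6 was 17.3 against 121 to 144, Tgfb3 207 against 815 to 2069 and Furin, which processes the TGFβ precursor, 4971 against 18817 to 25284. Id2, another gene of the Id family, was 24236 against 7538 to 12378, the opposite direction of Id1. These 10 genes were picked after their values were seen.

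**Figure D4:**
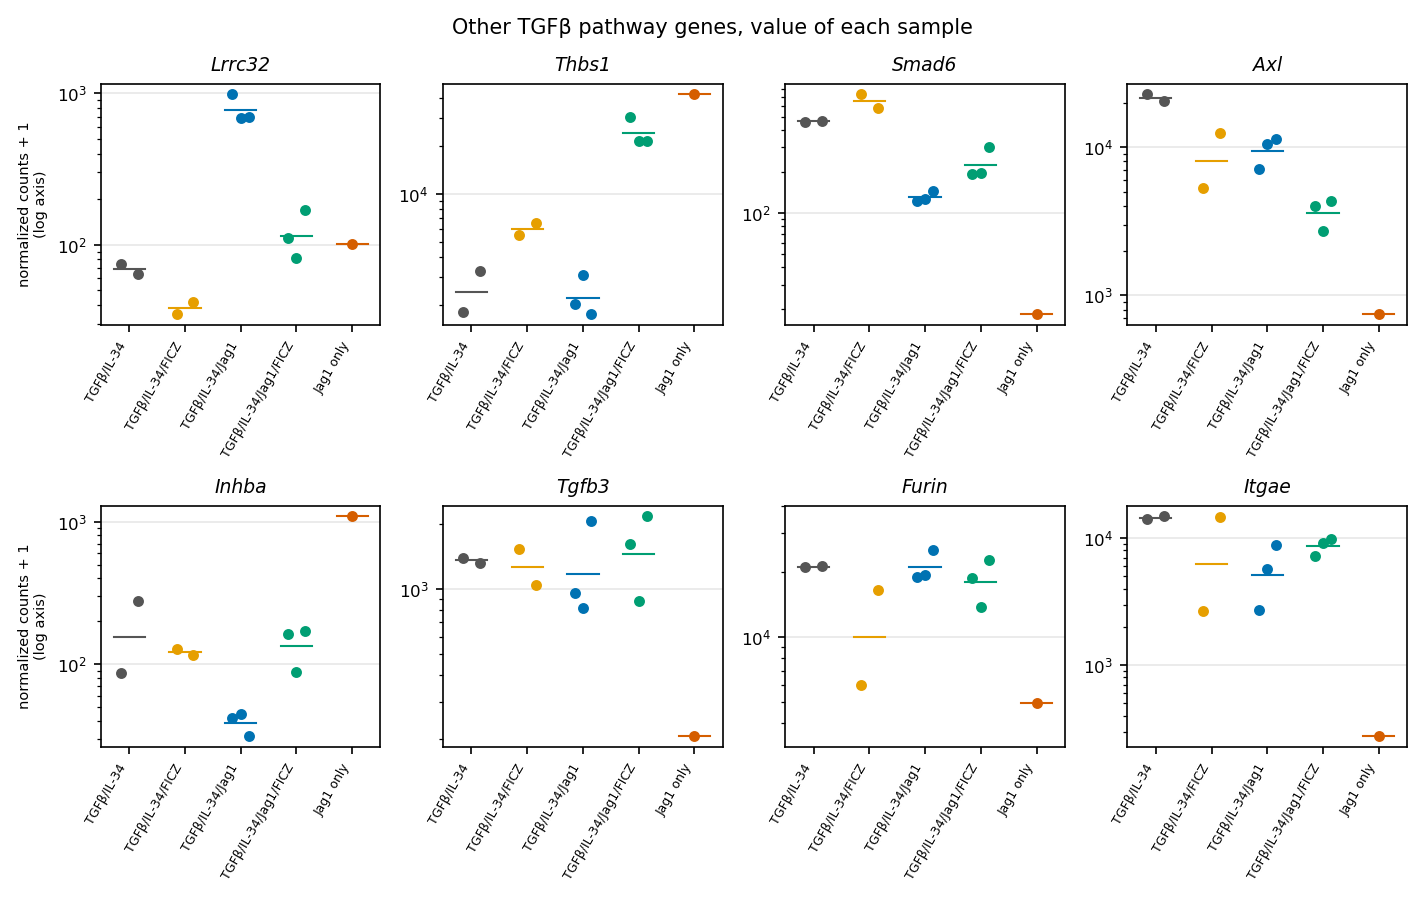
Normalized counts plus 1 (log axis) by culture group for 8 further pathway genes, with the mean of the log values as a bar. Lrrc32 is high in the 3 TGFβ/IL-34/Jag1 samples (686 to 983), Thbs1 in TGFβ/IL-34/Jag1/FICZ and Jag1 only (21480 to 41889), and Smad6, Axl, Tgfb3, Furin and Itgae are lowest in Jag1 only.

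The genes whose log2 values ran most like a member's over the 11 samples, among genes with a mean of at least 50, were Gimap5, Bcap29 and Ptgs1 for Id1 (Pearson's r 0.99, 0.987 and 0.985) and Cfp, Batf2 and Epb41l3 for Id3 (0.962, 0.95 and 0.948). For Tgfbi they were Pdk2, Wdr81 and Best1 (0.957, 0.944 and 0.943), and for Tgfb1 Napsa, Spns3 and Prr5 (0.988, 0.987 and 0.981). For Smad3 they were Wdtc1, Rdx and Nono (0.965, 0.963 and 0.955) and for Smad7 Gramd4, Arhgap27 and Nanos1 (0.96, 0.951 and 0.948). For Tgfbr1 they were Zfp282, Scap and Hdgfl3 (0.967, 0.964 and 0.961), for Tgfbr2 Marchf1, Zfp36l2 and Atp8b2 (0.982, 0.971 and 0.969), for Skil Mbd1, Otud6b and Slk (0.961, 0.959 and 0.946) and for Tgif1 Dgka, Card19 and Clec2l (0.98, 0.969 and 0.961). For Id1 and Smad3 the 1 sample without TGFβ and IL-34 spans most of the range, and the samples share groups, so these are descriptions.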

How the data were processed

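Transcripts of Ensembl GRCm39 had been quantified by the authors with salmon, brought to gene level by tximport and normalized by DESeq2, with versions not given in the sources used here. The deposited values are a normalized signal per gene and sample, counts corrected for library size and transcript length, so no count model was run. A second deposited file gives experiment codes, of which 1 (TGFβ/IL-34 replicate 1) differs from the sample description. The members and lists were chosen with earlier results of these data known.

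The 13095 genes that reached a value of 10 in 2 or more samples were fitted as log2(value + 1) with limma 3.58.1 in R 4.3.3 (lmFit, contrasts.fit, eBayes with trend), as 5 group means over 11 samples, which left 6 residual degrees of freedom. Two-sided p-values were adjusted by Benjamini-Hochberg over all genes per contrast, with a threshold of 0.05. All members were named, and of 78 other pathway genes those that passed, up to 5 per direction and contrast where the higher group's mean reached 50. The result of 1 such gene is not reported here. Markers were read as whole lists. Tried as alternatives were pseudocounts of 0.5 and 4, quantile normalization, no filter, only the groups compared, array weights, blocks (replicate number and experiment code, and, added after seeing the data, the code of the authors' file and the flow cell) and leaving out each sample. An arm left with 1 sample was assumed to vary like the other groups.

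Same-numbered samples of TGFβ/IL-34/Jag1 with and without FICZ share an experiment code, and their deviations correlated at 0.153, 0.122 and 0.166 across genes, so the numbers pair these groups. For simulated data (Jag1 without FICZ, 12862 genes), 42 of 100 genes changed 2-fold and 100 of 100 changed 4-fold were recovered, with 7 false calls. The simulation gave all genes and groups the same level of scatter, and its changed genes lay well above the filter. The real groups were less even, with 34.8% of genes 2-fold apart within TGFβ/IL-34/FICZ. The recovered shares therefore do not give the power of the real tests. Coordinates and promoters were read from GRCm39 with GENCODE vM39. Python 3.11.15 and pandas 2.3.3 were used.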

Additional observations from a re-analysis of the deposited data

Results flagged for a closer look

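Thbs1, which encodes an activator of latent TGFβ, was singled out because the FICZ effect differed between cultures with and without Jag1. Its log2 fold change with FICZ was larger by 2.14 where Jag1 was present (95% interval 1.18 to 3.10, limma, adjusted p = 0.0442). Thbs1 was read at 1798 and 3268 in TGFβ/IL-34, 5470 and 6506 in TGFβ/IL-34/FICZ, 1755 to 3070 in TGFβ/IL-34/Jag1 and 21480 to 30121 in TGFβ/IL-34/Jag1/FICZ. The direction was the same in all 20 alternatives, but the difference passed in 8 of them. With all samples kept, it was lost with array weights and with no filter (limma, adjusted p = 0.346 and 0.0943). So it was with the code of the description or of the file as a block (limma, adjusted p = 0.101 and 0.0539). It was lost without 8 of the 10 samples, namely without either TGFβ/IL-34 sample, without TGFβ/IL-34/FICZ replicate 1, without TGFβ/IL-34/Jag1 replicate 1 or 3, and without any TGFβ/IL-34/Jag1/FICZ sample (limma, adjusted p = 0.0643 to 0.249). No member and no other pathway gene of the 67 passed this test.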

How the results depend on the processing

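The share of all genes that passed depended on the setting. For Jag1 without FICZ it was 6.6% as reported, 20.1% under array weights and 8.34% when only the compared groups were fitted. In that order, it was 4.48%, 27.2% and 21.4% for both against neither. For FICZ with Jag1 the shares were 17.7%, 31.5% and 27.5%, and for Jag1 with FICZ 2.02%, 0% and 0%. Blocking by the description's code gave 5.75% for Jag1 without FICZ and 18.5% for FICZ with Jag1. The number of members that passed also depended on the setting. With Jag1 without FICZ (1 member) it was 7 with array weights, 3 with only the groups of the contrast and 2 with a block for the description's code, and 1 without each sample. With FICZ without Jag1 (0) it changed only without TGFβ/IL-34/FICZ replicate 2, which leaves 1 sample in that group. With both against neither (1) it was 5 with array weights, 4 with only the groups of the contrast, 0 without a filter, and 0 without any 1 sample. For FICZ with Jag1 (2) it was 6 with array weights and 4 with only the groups of the contrast. With a block for the description's code it was 4. Without 1 sample it was 1 to 3, against 10.6% to 13.9% of all genes. For Jag1 with FICZ (1) it was 0 with array weights, 0 without a filter and 0 with only the groups of the contrast. For the interaction (0) it was 1 (Tgfbi) with a block for the code in the authors' file. The 5 members that differed in the Jag1 only sample remained 5 in number under every alternative. The cause of these shifts was not tested. The pair of TGFβ/IL-34/FICZ samples is far apart. For FICZ without Jag1, Jag1 with FICZ and the interaction, the counts of members were highest without replicate 2 of that pair. So were the counts of all genes, and such a fit leaves 1 sample in the group.

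Of the 60 member results (10 genes in 6 contrasts), 14 turned sign under at least 1 alternative, 5 of them with all samples in the fit. None of the 14 had passed in the report. Of these, 5 passed under some alternative, and they turned with a TGFβ/IL-34/FICZ sample left out. For Jag1 with FICZ, Tgfbr1 was −1.30 without replicate 1 and 1.12 without replicate 2, Tgfbr2 −0.43 and 1.14, and Skil −0.29 and 0.82. In the interaction, Tgfbr1 was −0.21 without replicate 1 and 2.21 without replicate 2, and Tgfbr2 −0.33 and 1.24. With all samples, Tgfbr2 for Jag1 without FICZ (−0.11) was 0.13 with the description's code as a block, and for FICZ without Jag1 Tgfbi (−0.40) was 0.45 with the file's code as a block and Id1 (−0.27) 0.10 with the description's. Smad3 for FICZ with Jag1 (0.45) was −0.0026 with quantile normalization, and its interaction (0.18) was −0.69 there. With the replicate block, 3 members passed for FICZ with Jag1 (Smad7 in addition). The counts of the other contrasts were 1, 0, 1, 1 and 0, as without this block. By the sample descriptions, no TGFβ/IL-34 sample carries the experiment code of its same-numbered samples in the other groups. In contrasts that use TGFβ/IL-34 this block therefore joins different experiments and cannot show the effect of pairing. The number of all genes that passed ranged from 195 to 2627 for Jag1 without FICZ, 0 to 5718 for FICZ without Jag1, 35 to 3558 for both, 1387 to 4123 for FICZ with Jag1, 0 to 5820 for Jag1 with FICZ and 8 to 5488 for the interaction. Of 32 results for other pathway genes, 8 passed under every alternative. Counting error limits Smad3, Ccn2 and other genes with a few reads.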
